A study of Mus musculus with 2 samples.

Results

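A set of 2029 autosomal CpGs in mouse myotubes had a methylation level at least 20 percentage points away from the control on both DNA strands, and in the same direction, when the long non-coding RNA H19 was targeted. They were selected from 528743 CpGs that lay outside the recognition sequences of the restriction enzymes used (CCGG for MspI and TCGA for TaqαI) and had at least 10 reads on each strand in both libraries. The 528743 eligible CpGs were themselves part of 3613036 CpGs covered in either library. On both strands the level was higher with the H19 siRNA at 1136 of the 2029 CpGs and lower at 893. CpGs that moved by at least 20 points in opposite directions on the 2 strands numbered 1800, and this count is set beside the others throughout. Because these levels chose the CpGs, the levels and counts below are descriptions, with no test.

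The DNA came from C3H myoblasts that had been differentiated into myotubes in culture, transfected with a control siRNA (siCon) or an siRNA against H19 (siH19), and harvested 48 h after transfection. The assay was reduced representation bisulfite sequencing, which reads short restriction fragments rich in CpGs after bisulfite has turned unmethylated cytosine into uracil. There was 1 library per group, so neither culture-to-culture spread nor a difference between cultures unrelated to the siRNA could be measured, and DNA libraries do not show how far H19 was lowered. The siCon library held 104999613 reads summed over 5453019 CpG cytosines, with a median of 12 reads, and the siH19 library 106372792 reads over 5266846, with a median of 13. The question addressed was whether, and at which CpGs, methylation differs across the genome when H19 is lowered.

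A CpG reads the same on both strands, so each one carries a cytosine on the plus strand and another on the minus strand. During DNA replication the maintenance methyltransferase DNMT1 copies the mark from the parental strand to the new one, which keeps most CpGs equally methylated on both strands. DNMT3A and DNMT3B add methylation without a template, and all of these enzymes take the methyl group from S-adenosylmethionine. A level read separately on each strand comes from different reads, so the strands give a pair of readings of the same CpG within 1 library, though not of a separate culture.

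The sequences below, read from the GRCm38 assembly on the plus strand, show the loci with the most same-direction CpGs and the single CpGs with the largest shifts, so that the spacing of the CpGs can be seen. Capitals mark the same-direction CpGs. Those higher in siH19 came first, without the Fam69c and Ube2h loci, which are described further on by their levels alone.
Cdkn1c locus, chr7:143459339-143459457: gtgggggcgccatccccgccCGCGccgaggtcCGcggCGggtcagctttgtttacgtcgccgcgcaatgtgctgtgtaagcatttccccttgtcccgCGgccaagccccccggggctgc
Htra4 locus, chr8:25038416-25038559: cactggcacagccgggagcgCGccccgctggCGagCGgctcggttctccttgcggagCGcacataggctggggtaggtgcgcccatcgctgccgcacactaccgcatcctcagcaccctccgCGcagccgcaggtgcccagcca
Ahrr locus, chr13:74260011-74260084: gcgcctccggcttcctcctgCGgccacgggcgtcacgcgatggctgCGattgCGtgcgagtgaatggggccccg
CpG nearest to Mpdz, chr4:81149541-81149582: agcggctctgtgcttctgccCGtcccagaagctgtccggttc
Nup188 CpG, chr2:30324642-30324683: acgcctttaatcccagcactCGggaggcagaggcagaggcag

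The Cdkn1c window held 15 CpGs in 119 bp and the Htra4 window 16 in 144 bp, of which 5 in each were members. The window nearest to Mpdz and that of Nup188 lay in soft-masked repeats. The sequences lower in siH19 were shown by the same choice, with 7 CpGs in the 51 bp around the Plxnd1 members and 5 in the 46 bp nearest to Serp2.
Plxnd1 locus, chr6:115993569-115993619: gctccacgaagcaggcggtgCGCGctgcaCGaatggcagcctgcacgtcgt
Gm9063 locus, chr12:110320120-110320167: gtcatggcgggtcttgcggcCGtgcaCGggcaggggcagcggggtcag
locus nearest to Serp2, chr14:76606273-76606318: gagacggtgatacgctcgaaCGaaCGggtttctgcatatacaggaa
Sptbn4 locus, chr7:27416806-27416862: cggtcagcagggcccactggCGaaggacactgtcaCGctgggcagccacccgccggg
Rarb CpG, chr14:16532279-16532320: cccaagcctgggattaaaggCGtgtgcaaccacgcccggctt
Scarb1 CpG, chr5:125298496-125298537: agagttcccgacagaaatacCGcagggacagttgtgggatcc

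For contrast, the CpGs with the largest shifts in opposite directions on the 2 strands were also shown, with the CpG in capitals.
Lgals4 CpG, chr7:28838399-28838440: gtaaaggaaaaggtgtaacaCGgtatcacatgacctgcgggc
Grhl2 CpG, chr15:37234234-37234275: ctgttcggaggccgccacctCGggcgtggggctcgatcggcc

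Moving in the same direction on both strands was slightly more frequent than moving in opposite directions. Higher on both strands were 1136 CpGs, or 0.215% of all 528743, lower on both were 893, or 0.169%, and opposite were 1800, or 0.34%. Same-direction CpGs were 53.0% of all CpGs past 20 points on both strands (exact 95% interval 51.4 to 54.6%), and 56.0% of the same-direction CpGs were higher in siH19 (53.8 to 58.2%). At mean levels over both strands and libraries between 20 and 80%, the same-direction share was 52.1% (50.4 to 53.8%). It was 62.2% between 10 and 20% (55.3 to 68.8%) and 60.4% between 80 and 90% (52.3 to 68.0%). All intervals here are exact Clopper-Pearson intervals. For the level of a CpG they count reads, some of which may be copies of the same molecule, since there were no molecular identifiers. For a share of CpGs they count CpGs as if each were independent, although neighbouring CpGs share reads, and they leave out the error of the reads behind each CpG. None of them covers the spread between cultures. A shift on 1 strand was rarely matched on the other. On the plus strand 12858 CpGs were at least 20 points higher in siH19, and of these 8.83% were also at least 20 points higher on the minus strand, 6.87% were at least 20 points lower and 84.3% were within 20 points. Of the 11296 CpGs lower on the plus strand, 7.91% were also lower on the minus strand and 8.12% were higher there. Of the 11369 CpGs lower on the minus strand, 7.85% were also lower on the plus strand and 7.77% were higher there, so that for lower CpGs the matching and the opposite direction were about as frequent.

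**Figure D1:**
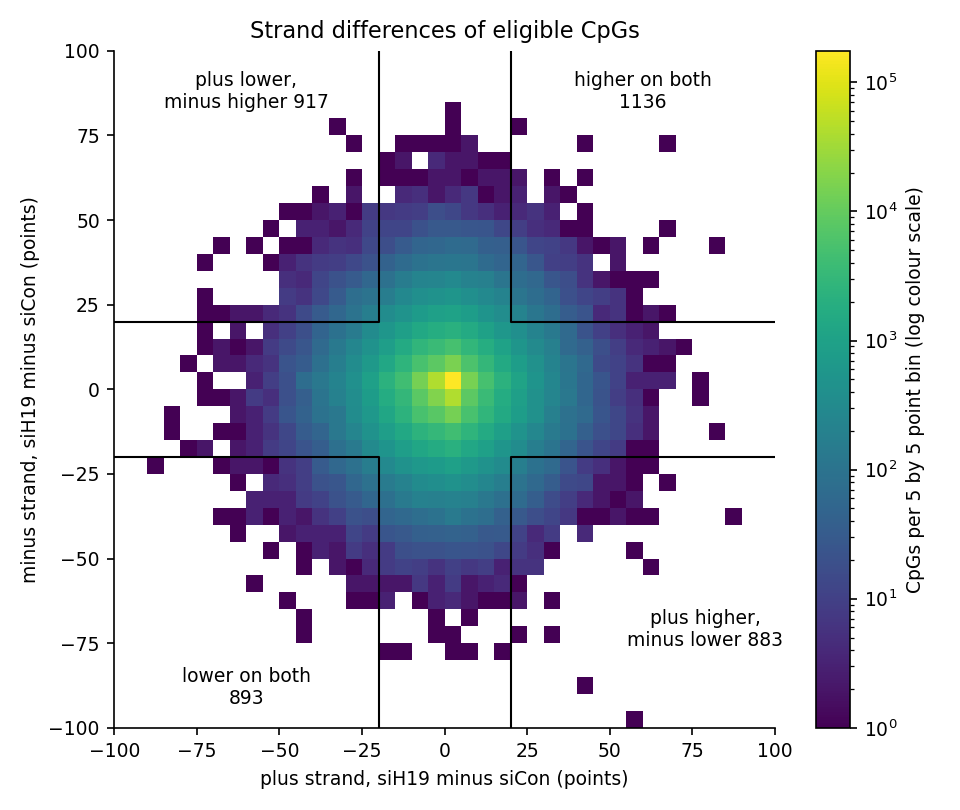
Difference in methylation between siH19 and siCon on the plus strand (x axis, percentage points) and the minus strand (y axis, percentage points) for the 528743 eligible CpGs, counted in bins of 5 by 5 points with a logarithmic colour scale. The black lines mark 20 points, and the corners hold 1136 CpGs higher on both strands, 893 lower on both, 883 higher on plus and lower on minus and 917 the other way.

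The counts fell steeply with the size of shift and the depth required. At 15 points there were 3378 CpGs higher, 2659 lower and 5587 opposite, and at 30 points 123, 109 and 191. With at least 20 reads on each strand and library, 206 were higher, 114 lower and 285 opposite among 261018 CpGs, and with at least 30 reads 45, 24 and 73 among 124704. The same-direction share at 20 points was 52.9% with 20 reads (48.8 to 56.9%) and 48.6% with 30 reads (40.1 to 57.1%). The share that was higher in siH19 was 64.4% with 20 reads (58.9 to 69.6%), above the 56.0% found with 10 reads. With 20 reads and 30 points, 19 CpGs were higher and 6 lower against 9 opposite. This same-direction share of 73.5%, with a wide interval of 55.6 to 87.1%, was the highest of the settings run. At 25 points the share was 59.9% with 20 reads (52.0 to 67.4%), 46.5% with 30 reads (31.2 to 62.3%) and 43.8% with 40 reads (19.8 to 70.1%). With 30 reads and 30 points, 4 were higher, 1 lower and 3 opposite. With 40 reads none of 58341 CpGs passed 30 points in any of the 3 classes.

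**Figure D2:**
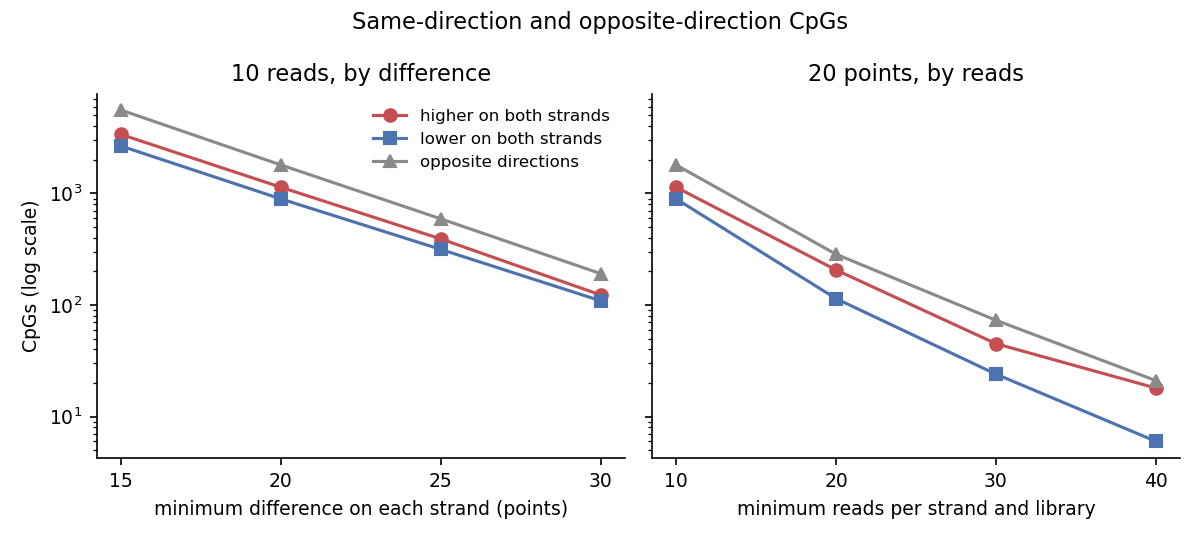
Number of CpGs higher in siH19 on both strands, lower on both, or moved in opposite directions (y axis, logarithmic), against the smallest difference required at 10 reads (left, percentage points) and against the smallest read number required at 20 points (right). The opposite-direction line pools both opposite combinations of the strands, while each same-direction line holds a single combination. It lies above each of them at every setting drawn, down to 21 opposite, 18 higher and 6 lower with 40 reads.

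CpGs left out by the rule behaved differently by class. On chromosome X, 109 CpGs were higher on both strands, 51 lower and 151 opposite among 12838, or 12.5 same-direction CpGs per 1000 against 3.84 per 1000 on the autosomes. Opposite-direction CpGs were likewise more frequent there, with 11.8 per 1000 against 3.40. The same-direction share on chromosome X was 51.4% (45.7 to 57.1%). At autosomal CCGG sites 150 CpGs were higher, 57 lower and 7347 opposite, and at TCGA sites 129, 47 and 4393. Same-direction CpGs were therefore 2.74% and 3.85% of the CpGs past 20 points on both strands at the enzymes' own sites, against 53.0% elsewhere. Among the autosomes the same-direction share ran from 47.4% on chromosome 5 (41.8 to 53.0%) to 61.5% on chromosome 8 (54.7 to 68.0%).

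Most members had intermediate methylation in both libraries. The median level over both strands was 30.6% in siCon and 60.2% in siH19 for CpGs higher in siH19, and 66.5% and 36.3% for those lower. All eligible CpGs had medians of 4.38% and 4.55%, a contrast set in part by the rule, since a shift of 20 points on both strands cannot be had at a mean level under 10% or over 90%. Mean levels between 20 and 80% held 88.6% of the higher members and 89.1% of the lower ones, 92.1% of opposite-direction CpGs and 20.5% of eligible CpGs. Among CpGs higher in siH19, 42 had no methylated read on either strand in siCon, and among those lower, 22 had every read methylated in siCon and 16 had no methylated read in siH19. The smaller of the 2 strand shifts was under 25 points at 65.7% of higher and 64.8% of lower members, and at least 40 points at 13 of each. Within a library the strands of a member differed by a median of 8.42 points in siCon and 8.33 in siH19, against 31.2 and 23.1 at opposite-direction CpGs, a contrast that follows from the rule.

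Members were also shallow. Of same-direction CpGs, 701 higher and 580 lower ones had 10 to 14 reads as the smallest of the 4 read numbers, which is 8.11 per 1000 eligible CpGs at that depth against 0.411 per 1000 at 40 reads or more. Opposite-direction CpGs followed the same course, with 7.11 and 0.360 per 1000. The median of reads summed over both strands was 41 in siCon and 48 in siH19 at higher members, and 65 and 67 over all eligible CpGs.

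The largest shift to a higher level was at an intergenic CpG on chromosome 4, position 81149561, 128939 bp from the nearest protein-coding gene, Mpdz. In siCon 0 of 12 reads on the plus strand (interval up to 26.5%) and 0 of 10 on the minus strand (up to 30.8%) were methylated. In siH19 it was 29 of 43 (67.4%, 51.5 to 80.9%) and 27 of 37 (73.0%, 55.9 to 86.2%). This CpG was unmethylated in the siCon reads and mostly methylated in siH19, and both ends of its fragment were within 50 bp. Within Nup188, which encodes a nuclear pore protein, position 30324662 on chromosome 2 went from 2 of 11 and 2 of 15 reads in siCon to 10 of 12 and 12 of 20 in siH19. An intronic CpG of Cacna1a, the gene of a voltage-gated calcium channel subunit, on chromosome 8 at position 84520522, had 0 of 14 methylated plus reads and 4 of 12 minus reads in siCon. In siH19 it had 31 of 69 and 10 of 12. The strands agreed in direction there but not in level, since in siH19 the plus strand was at 44.9% and the minus strand at 83.3%.

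The next members by size lay in introns or between genes. In an intron of Acbd3, position 180738852 of chromosome 1, the plus strand was at 2 of 10 reads in siCon and 8 of 12 in siH19, and the minus strand at 6 of 16 and 14 of 17. In an intron of Bmp1, the gene of a metalloproteinase that processes procollagen, position 70502290 of chromosome 14 had no methylated read among 10 on either strand in siCon and 8 of 18 and 10 of 16 in siH19. A CpG 15032 bp from Glis2, position 4579681 of chromosome 16, went from 4 of 14 and 2 of 10 to 16 of 22 and 12 of 18. Of these 6 higher members with the largest shifts, 5 lay in soft-masked repeats and none in a computed CpG island.

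Members of a direction lying at most 100 bp apart were joined into loci. The 1136 higher CpGs formed 1064 loci, of which 1009 held a single CpG, 47 held 2 and 8 held 3 or more. The 893 lower CpGs formed 861 loci, with 830 of a single CpG, 30 of 2 and 1 of 3. Opposite-direction CpGs formed 1714 loci, with 1640 of a single CpG, 64 of 2 and 10 of 3 or more, and their largest locus held 4. Loci of more than 1 CpG held 11.2% of higher, 7.05% of lower and 8.89% of opposite-direction CpGs. In each of the 12 loci described next, all members lay on 1 restriction fragment and so could share reads. Numbers given for a locus are CpG readings summed over its members, so a read covering several members was counted at each. They are therefore larger than the number of separate reads.

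The locus with the most members lay at the start of Fam69c and the non-coding gene D030046N08Rik on chromosome 18, in a CpG island. All 12 CpGs of its 62 bp fragment were eligible and all 12 were higher in siH19 on both strands, 8 of them by at least 20 points. Summed over the 8 members, the plus strand was methylated in 25.9% of 143 CpG readings in siCon and 57.5% of 414 in siH19. The minus strand was methylated in 22.7% of 119 and 60.7% of 374. At position 84720209 no read was methylated in siCon, of 12 on the plus strand and 10 on the minus strand, while 13 of 34 and 13 of 31 were in siH19. The 46 other CpGs covered within 1000 bp, on other fragments, were at 20.8% in siCon and 22% in siH19. The shift was thus seen over the whole fragment but not over the surrounding kilobase.

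Cdkn1c, which encodes an inhibitor of cyclin-dependent kinases and is an imprinted gene of distal chromosome 7, carried 5 higher members within 79 bp from position 143459359, in an intron and within 1 kb of the start of Gm44732. Summed over them, the plus strand was methylated in 6.58% of 76 CpG readings in siCon and 42.4% of 85 in siH19. The minus strand was methylated in 6.67% of 90 and 29.6% of 115. All 10 CpGs of the 114 bp fragment were eligible and all 10 were higher on both strands. At each of the 10 the siCon minus strand was read 18 times and the siH19 minus strand 23 times. The 72 other CpGs covered within 1000 bp were at 41.4% in both libraries, far above the fragment's own siCon level. Cdkn1c was not in the imprinted list used below.

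Htra4, a serine protease gene on chromosome 8, had 5 higher members in 104 bp, in coding sequence near the start of the gene and in a CpG island. Their summed level was 31.1% of 103 plus strand readings in siCon and 60.2% of 108 in siH19. On the minus strand it was 26.9% of 197 and 56.8% of 148. Of the 14 CpGs on the fragment 11 were higher on both strands, and the members were interleaved with CpGs that shifted less. The 31 other CpGs covered within 1000 bp went the other way, from 46.9% to 41%. Ahrr, whose product represses the aryl hydrocarbon receptor, had 3 higher members in an intronic island on chromosome 13. In siCon they were at 9.85% of 132 plus strand readings and 16% of 100 minus strand readings. In siH19 they were at 41.6% of 245 and 40.3% of 288, while 4 other CpGs within 1000 bp were at 1.72% and 3.83%.

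Ube2h, encoding a ubiquitin-conjugating enzyme, had 3 higher members in the untranslated part of its promoter exon on chromosome 6. Their plus strand was at 53.1% in siCon and 81.8% in siH19 and their minus strand at 19.6% and 47.9%, so that the strands were unequal in both libraries and shifted by a like amount. Vinac1 on chromosome 2 had 3 higher members in coding sequence, at 41.5% and 70% on the plus strand and 36.7% and 69.8% on the minus strand. Over the other CpGs within 1000 bp the level decreased by 0.742 points at Ube2h and decreased by 4.93 points at Vinac1.

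**Figure D3:**
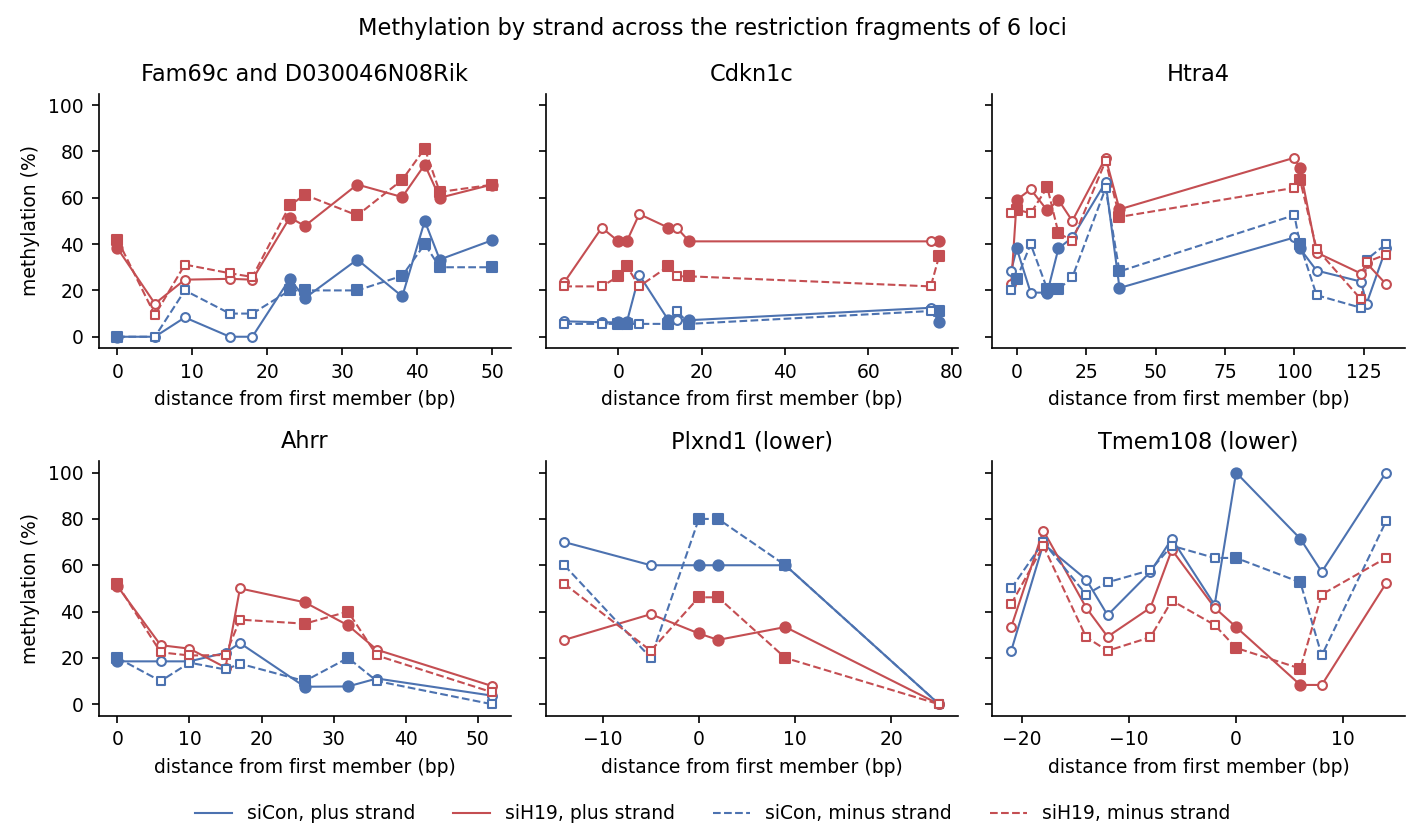
Methylation (y axis, percent) at each eligible CpG of the restriction fragment of 6 loci, against distance from the first member (x axis, bp), for siCon (blue) and siH19 (red) on the plus strand (circles, solid lines) and minus strand (squares, dashed lines). Filled symbols are same-direction CpGs. At Fam69c and Cdkn1c all 12 and all 10 CpGs were higher in siH19 on both strands, while at Plxnd1 and Tmem108 the members were lower.

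In promoters, taken as the 1 kb on either side of a transcription start, 355 members were higher and 239 lower in siH19, beside 488 opposite-direction CpGs. Per 1000 of the 310015 eligible promoter CpGs, 1.92 were same-direction and 1.57 opposite-direction CpGs. The higher and lower members touched promoters of 252 and 175 protein-coding genes, against 334 for opposite-direction CpGs, which pool both opposite combinations of the strands. In 20 coding promoters there were both higher and lower members. The number of coding promoters with an eligible CpG is not given, so these counts are not shares. The largest shift to a higher level in a coding promoter was at Samd13, position 146685492 of chromosome 3, with 0 of 14 and 0 of 10 reads methylated in siCon and 14 of 32 and 14 of 20 in siH19. Gfi1, the gene of a zinc finger repressor, had a member on chromosome 5, position 107724746, at 5 of 16 and 16 of 45 reads in siCon and 11 of 15 on each strand in siH19. Macrod2, which encodes an ADP-ribose hydrolase, had one on chromosome 2, position 140396122, with no methylated read among 15 and 42 in siCon and 22 of 60 and 25 of 63 in siH19. At Macrod2 the minus strand interval reached 8.41% in siCon and was 27.6 to 52.8% in siH19. Prss16, a serine protease gene of thymic epithelium, had one in coding sequence on chromosome 13, position 22007243, at 2 of 16 and 6 of 20 reads in siCon and 15 of 31 and 28 of 32 in siH19. The remaining members chosen by this rule were the pair in the Fam69c promoter.

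The largest shift to a lower level lay in a coding exon of Sptbn4, the gene of a beta spectrin, on chromosome 7. At position 27416841 the plus strand had 12 of 14 methylated reads in siCon (57.2 to 98.2%) and 6 of 20 in siH19 (11.9 to 54.3%). The minus strand had 10 of 10 (69.2 to 100%) and 10 of 24 (22.1 to 63.4%). Both fragment ends were within 50 bp of this CpG and all of its read numbers were even. Both ends were as near at the CpGs named for Nup188, Cacna1a, Acbd3, Bmp1, Samd13, Macrod2, Prss16 and Rarb. They were also as near at those of C130071C03Rik, Tmem108, Dchs1, Cdk6, Hs6st3 and Gnal. The same held for the Plxnd1 and Gnas members, position 110278357 near Dio3, and the Lgals4, Grhl2 and Sdk2 CpGs named below. It also held for some of the members at Fam69c, Ahrr and Vinac1. Such CpGs were 31.4% of higher and of lower members, 30.4% of opposite-direction CpGs and 20.2% of eligible CpGs. Whether both reads of a pair were counted there was not tested. The other member of the Sptbn4 locus, 15 bp before position 27416841, was lower by less on the plus strand. Its level there was 42.9% in siCon and 20% in siH19. In an intron of Rarb, encoding a retinoic acid receptor, position 16532299 of chromosome 14 went from 8 of 10 and 10 of 10 reads to 4 of 13 and 6 of 16, within a soft-masked repeat. In an intron of Scarb1, encoding a receptor for high-density lipoprotein, position 125298516 of chromosome 5 went from 20 of 23 and 14 of 16 reads to 14 of 33 and 4 of 10.

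Some of the lower members lay in or near non-coding genes. At the start of C130071C03Rik, a gene 60332 bp from the muscle regulator Mef2c on chromosome 13, position 83727412 went from 6 of 12 and 10 of 12 methylated reads in siCon to 2 of 29 and 4 of 31 in siH19. Gm9063 on chromosome 12, 39043 bp from Dio3, had a pair of lower members 6 bp apart near its start. Over the pair the plus strand was at 79.4% of 34 CpG readings in siCon and 26.7% of 30 in siH19. The minus strand was at 73.8% of 42 and 27.5% of 40. Of the 8 eligible CpGs of that 147 bp fragment, 3 were lower on both strands, so the shift did not extend over the fragment. An intergenic pair 49404 bp from Serp2 on chromosome 14 went from 79.4% to 35.0% on the plus strand and from 89.7% to 40.6% on the minus strand. Another eligible CpG on the same fragment, 37 bp from the first of the pair, was at 88.2% and 90% on the plus strand and at 80% and 100% on the minus strand.

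Plxnd1, the gene of a semaphorin receptor, held the 1 lower locus with 3 members, in 11 bp of coding sequence on chromosome 6. The plus strand was at 60.0% of 60 CpG readings in siCon and 30.6% of 108 in siH19, and the minus strand at 73.3% of 45 and 37.7% of 77. A CpG on the fragment 25 bp away had no methylated read in either library. Tmem108 on chromosome 9 had a pair of lower members in the untranslated part of its promoter exon, at 85.7% and 20.8% on the plus strand and 57.9% and 19.7% on the minus strand. Next to them, 8 bp from the first, stood a CpG that moved in opposite directions, from 57.1% to 8.33% on the plus strand and from 21.1% to 47.4% on the minus strand. Dchs1, encoding a large cadherin, had a pair on chromosome 7 at 64.3% and 29.2% on the plus strand and 90% and 30.6% on the minus strand, the siCon minus strand resting on 10 reads per CpG.

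Further lower members in coding promoters belonged to a cell-cycle kinase, a sulfotransferase and a G protein. Cdk6 on chromosome 5, position 3344782, went from 14 of 18 and 10 of 12 methylated reads to 14 of 38 and 19 of 47. Hs6st3, whose product sulfates heparan sulfate, had a member 219 bp outside the gene on chromosome 14, position 119138122, at 6 of 12 and 6 of 10 reads in siCon and 4 of 31 and 6 of 42 in siH19. Gnal, a G protein alpha subunit gene on chromosome 18, had a member at position 67088426 at 10 of 14 reads on each strand in siCon and 8 of 48 and 21 of 59 in siH19. In all 3 the siH19 library had more than 30 reads on each strand and the siCon library fewer than 20.

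Among genes of 4 lists, imprinted genes held most of the members. The list of 21 imprinted genes had 701 eligible CpGs, of which 8 were higher, 1 lower and 2 opposite, a same-direction share of 1.28% against 0.384% over all eligible CpGs. Imprinted genes carry methylation on 1 parental allele at their control regions, and 431 of their eligible CpGs had mean levels between 20 and 80%. Among CpGs at those levels, 1.62% in the list and 1.66% over the genome were same-direction CpGs. The list therefore stood above the background over all levels and level with it at intermediate methylation.

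Maternally expressed Meg3, a long non-coding RNA gene on chromosome 12, had a higher member in an exon near its start, position 109546064, at 22 of 47 and 8 of 16 reads in siCon and 22 of 30 and 8 of 10 in siH19. H13, which encodes signal peptide peptidase, had one in an intron on chromosome 2, position 152674419, at 8 of 31 and 16 of 40 reads in siCon and 18 of 32 and 26 of 37 in siH19. Igf2r, encoding the receptor that clears IGF2, had one in the untranslated part of its promoter exon on chromosome 17, position 12769565, in a stretch also annotated to the antisense gene Airn. It went from 9 of 42 and 6 of 21 reads to 11 of 24 and 14 of 27. At these genes the intervals of the libraries met on at least 1 strand.

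Gnas, the gene of the stimulatory G protein alpha subunit, had a pair of higher members in coding sequence next to the antisense gene Nespas on chromosome 2, positions 174284704 and 174284738, on a 63 bp fragment. The minus strand reads were the same at both, 2 of 15 in siCon and 6 of 18 in siH19. The plus strand went from 2 of 13 and 2 of 14 to 16 of 40 at each. Peg3, a paternally expressed zinc finger gene on chromosome 7, had one in coding sequence at position 6708714, which went from 7 of 10 and 13 of 18 reads to 9 of 10 and 17 of 18. Plagl1, another paternally expressed zinc finger gene, had one in an intronic island on chromosome 10, position 13061083, at 4 of 10 and 12 of 37 reads in siCon and 10 of 15 and 20 of 38 in siH19. These shifts were near the threshold of 20 points on at least 1 strand.

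At Dio3, which encodes the deiodinase that inactivates thyroid hormone, position 110278357 of chromosome 12 had no methylated read among 18 and 14 in siCon and 6 of 30 and 7 of 29 in siH19. Another CpG of the Dio3 promoter, at position 110278659, moved in opposite directions on the 2 strands. The 1 lower member of the list lay in Zrsr1, a paternally expressed gene within an intron of Commd1 on chromosome 11, position 22974076. It had 35 of 77 and 24 of 47 methylated reads in siCon and 8 of 36 and 3 of 10 in siH19. An opposite-direction CpG in the same gene, position 22973140, was at 48.6% and 22.6% on the plus strand and 10.5% and 31.6% on the minus strand. H19 and Igf2 themselves held no member.

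The other lists held 2 members between them. Of 677 eligible CpGs in 23 of 26 muscle genes, 1 was higher, none lower and 2 opposite, a same-direction share of 0.148% against 0.384% over all eligible CpGs. At mean levels between 20 and 80% it was 1 of 176 CpGs, or 0.568%, against 1.66%. The higher one lay in the untranslated part of an exon of Myod1, the master regulator of the muscle lineage, on chromosome 7, position 46378464. It went from 2 of 19 and 5 of 34 methylated reads to 5 of 16 and 9 of 25. Opposite-direction CpGs lay at Pax3, a regulator of muscle progenitors, and at Myh2, a fast myosin heavy chain gene. Of 614 eligible CpGs in 16 genes of the methyl cycle and of DNA methylation, 1 was a member (0.163%), lower in siH19, in an intron of Tet1, which encodes an enzyme that oxidises 5-methylcytosine. It was the 1 member among 44 CpGs of the list at mean levels between 20 and 80%, or 2.27%. At position 62842152 of chromosome 10 it went from 18 of 19 and 23 of 26 methylated reads to 18 of 31 and 21 of 31. Among the 6 genes that the study followed individually, 146 eligible CpGs held no member and 1 opposite-direction CpG, near the start of Bmp8b. With 0.384% of all eligible CpGs being members, a list of 146 is too short to tell its share from the background. The shares of the muscle and methyl-cycle lists rest on 1 member each, which is also too few to tell them from the background.

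**Figure D4:**
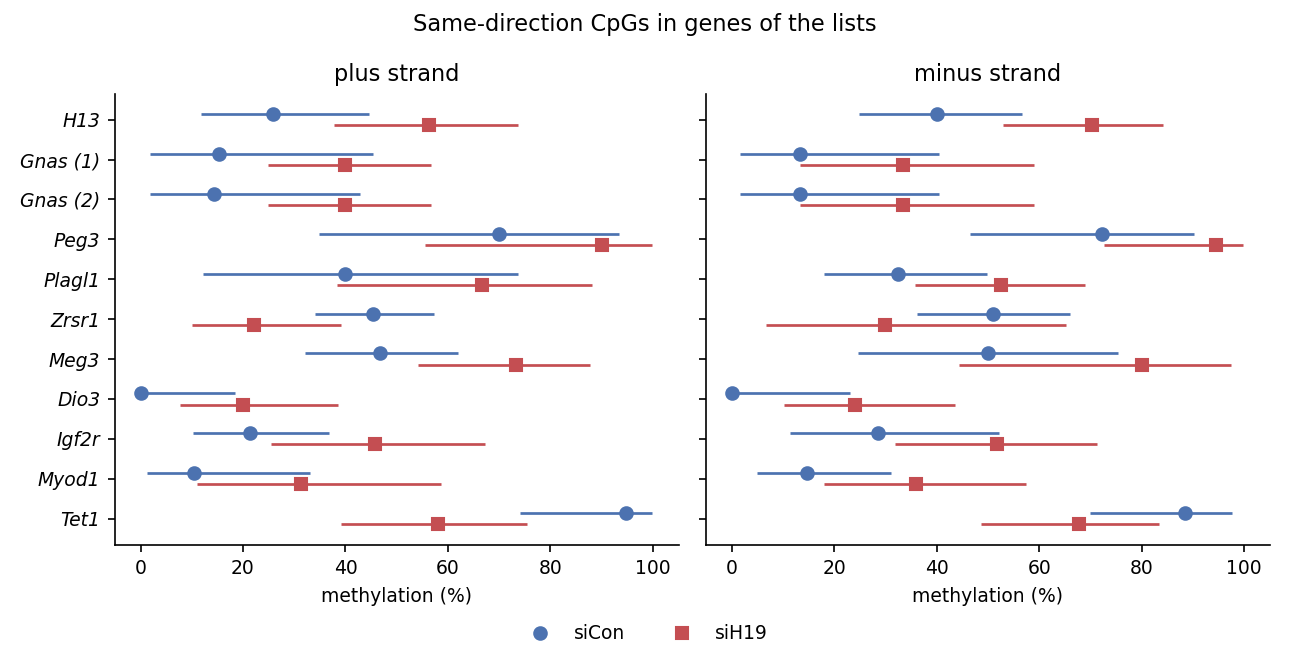
Methylation (x axis, percent) on the plus strand (left) and minus strand (right) of each same-direction CpG in the imprinted (H13 to Igf2r), muscle (Myod1) and methyl-cycle (Tet1) lists, in siCon (blue circles) and siH19 (red squares). Lines are exact 95% intervals of the read counts. All but Zrsr1 and Tet1 were higher in siH19, and every pair of intervals met.

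By annotation, members were found away from promoters and islands more often than eligible CpGs as a whole, and opposite-direction CpGs were placed alike. Promoters held 31.2% of higher and 26.8% of lower members, 27.1% of opposite-direction CpGs and 58.6% of eligible CpGs. Computed CpG islands held 33.5%, 30.5%, 30.7% and 62.2%, and soft-masked repeats 20.7%, 18.1%, 18.1% and 8.08%. Among CpGs with mean levels between 20 and 80% these contrasts shrank. Same-direction CpGs then numbered 15.2 per 1000 in promoters, 14.5 in exons, 18.4 in introns and 17.8 between genes. In repeats they numbered 23.4 per 1000 against 15.5 outside, and opposite-direction CpGs 19.7 against 14.5. The share of members that was higher in siH19 was 59.8% in promoters (55.7 to 63.7%) and 49.8% in exons (44.0 to 55.7%).

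The surroundings of members were sparser in CpGs. Within 100 bp of a higher or a lower member the median number of CpGs was 8, as at opposite-direction CpGs, against 15 for eligible CpGs, and the median GC content was 56.4% around higher and 55.4% around lower members and 63.9% around eligible CpGs. The bases next to the CpG gave same-direction shares from 47.0% for ACGC (40.8 to 53.2%) to 57.8% for CCGC (52.9 to 62.5%). GCGG, which is CCGC read from the other strand, had 49.9% (45.0 to 54.8%).

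Neighbouring CpGs moved with a member mainly at short distance. Reads of other CpGs were summed over both strands in bins of distance, and the difference was given the sign of the member. Within 50 bp the neighbours had the direction of the member at 76.1% of higher members (73.1 to 78.9%) and 69.5% of lower ones (65.9 to 73.0%), with median shifts of 5.43 and 4.07 points towards it. From 51 to 100 bp the shares were 57.4% and 51.7%, from there to 500 bp 54.6% and 47.9%, and beyond that, up to 2000 bp, 50.5% and 48.0%. A difference of 0 was counted as not in the member's direction. Near neighbours could lie on the same reads that chose the member, and some were members themselves. Within 100 bp, neighbours moved the same way at 69.6% of 1695 members, and at 69.0% of 1669 when neighbours that were members were left out. On other restriction fragments within 1000 bp, where no fragment is shared, 55.5% of 816 higher members (52.0 to 59.0%) and 50.9% of 636 lower ones (47.0 to 54.9%) had neighbours moving with them. Opposite-direction CpGs, signed by the plus strand, had 49.4% (46.6 to 52.2%). Every 20th eligible CpG, taken without sign, had such neighbours higher in siH19 in 50.6% of cases. That share can be set beside the higher members only, and the sample was not matched to members by level.

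Opposite-direction CpGs had neighbours that followed each strand on its own. Within 50 bp the plus strand of the neighbours moved with the plus strand of the CpG at 67.3% (64.7 to 69.8%) and the minus strand with the minus strand at 67.8% (65.2 to 70.3%). The corresponding values were 71.8% and 69.2% at higher members and 63.8% and 64.8% at lower ones. Local agreement on a strand was therefore of like size whether the 2 strands of the CpG moved together or apart. Beyond 50 bp the opposite-direction CpGs had shares from 46.2% to 53.1%.

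**Figure D5:**
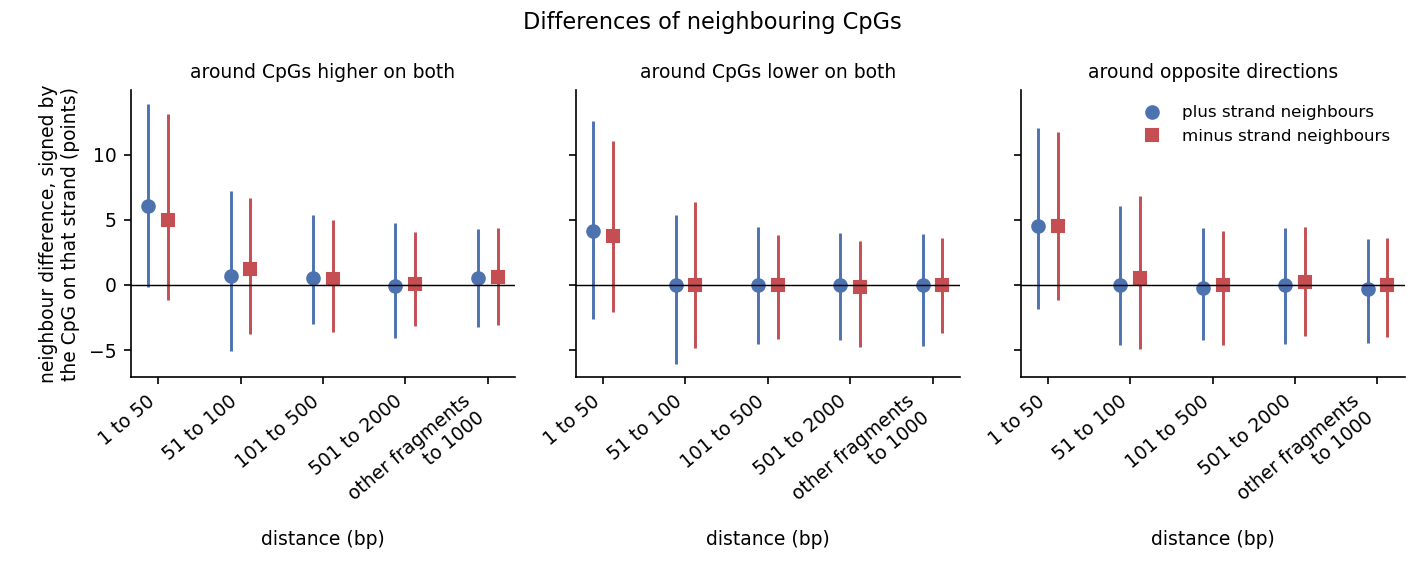
Difference in methylation, siH19 minus siCon, of neighbouring CpGs (y axis, percentage points, signed so that above 0 is the direction of the CpG on that strand) by distance (x axis, bp) for plus strand neighbours (blue circles) and minus strand neighbours (red squares). Symbols are medians and lines reach from the lower to the upper quartile. Medians within 50 bp lie between 3.78 and 6.09 points in the 3 panels and those farther away between -0.313 and 1.25.

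The yield of members differed with the length of the restriction fragment, though not in 1 direction. On fragments of 51 to 60 bp there were 9.88 same-direction and 7.80 opposite-direction CpGs per 1000 eligible, and on fragments of 81 to 90 bp 1.85 and 1.88. On fragments of 121 to 150 bp it was 5.34 and 4.99. Where both fragment ends were within 50 bp of the CpG, as at 106778 eligible CpGs, total read numbers were even in 61.1 to 66.8% of CpGs with mixed methylation, against 50.3 to 50.6% elsewhere. Numbers of methylated reads were even in 68.5 to 71.7%, against 41.9 to 42.6% elsewhere. Without these CpGs there were 779 higher and 613 lower members and 1253 opposite-direction CpGs, and the share of higher members stayed at 56.0%. Read numbers also rose towards the middle of some short fragments. At Fam69c the siCon plus strand had 12 reads at position 84720209 and 24 at position 84720232. At Ahrr it had 27 at position 74260031 and 54 at position 74260046. Whether both reads of a pair were counted at such CpGs was not tested. If they were, the exact intervals given for these CpGs are too narrow.

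At the threshold itself, members and non-members were separated by hundredths of a point. Just inside, a CpG 19603 bp from Olig3 went from 8 of 15 to 22 of 30 methylated plus reads, a shift of exactly 20 points, and from 10 of 15 to 16 of 18 minus reads. Just outside, a promoter CpG of Sdk2 was higher by 20.25 points on the plus strand and 19.98 on the minus strand, from 10 of 27 and 12 of 39 reads to 55 of 96 and 34 of 67. On the lower side Ecel1 was just inside, from 3 of 10 and 5 of 14 reads to 1 of 10 and 2 of 13. An intergenic CpG 31077 bp from Mug2 was just outside, with -19.98 points on the plus strand and -25.39 on the minus strand. On the higher side the 3 CpGs just outside were read more deeply than the 3 just inside. The ranking favours this, because a shift of exactly 20 points comes most readily from small read numbers.

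At opposite-direction CpGs the counted reads of the 2 strands could differ completely within 1 library. At both CpGs given here the fragment ends were within 50 bp and all read numbers were even. Whether both reads of a pair were counted at them was not tested. In an intron of Lgals4, a galectin gene on chromosome 7, position 28838419, 0 of 12 plus reads and 12 of 12 minus reads were methylated in siCon, and 10 of 18 and 0 of 16 in siH19. In an intron of Grhl2, a transcription factor gene on chromosome 15, position 37234254, the plus strand went from 0 of 10 to 12 of 20 and the minus strand from 12 of 16 to 6 of 28. The 6 same-direction CpGs with the largest shifts had a smaller strand shift of 44.2 to 67.4 points where higher and of 43.1 to 55.7 points where lower.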

How the data were processed

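The libraries were cut with TaqαI and MspI, size-selected, bisulfite-treated and sequenced. The authors aligned the reads with Bismark in non-directional mode within a service provider's pipeline and trimmed filled-in bases. The submitters' processing notes name mm10 and bcl2fastq 1.8.4, and removal of duplicates is not given in the sources used here. The deposited values have another form than plain numbers, a text field per CpG cytosine and strand with methylated reads, total reads and a percent. These raw counts were used without normalization. The authors' score, the methylated fraction scaled and rounded down, served only to check the parsing and matched in 100% of entries.

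All positions on assembled chromosomes fell on CpGs of GRCm38. Genes came from GENCODE vM21 basic (55413 genes). The 21523 CpG islands were computed from windows of 500 bp whose GC content reached 55% and whose CpG number reached 0.65 of that predicted from base content. Fragments were taken between neighbouring CCGG or TCGA sites. Neighbour levels required 10 reads in each library. Intervals are exact Clopper-Pearson 95% intervals (scipy 1.17.1, Python 3.11.15). The counting was tested on simulated data. There was no test, since each group had 1 library and the levels chose the CpGs.

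The members and lists were chosen with earlier results of these data known. Named were, in each direction, the 6 CpGs with the largest smaller strand shift, the 6 loci with the most members, the 6 largest in coding promoters, every member in the lists, 3 CpGs on each side of the threshold and the 2 largest opposite-direction CpGs. Alternatives changed the read minimum, the threshold, repeats, the deepest CpGs, distance to a site, locus counting, chromosome X and the neighbours used. Leaving out CpGs with both fragment ends within 50 bp, and neighbours on other fragments, were chosen after seeing the data.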

Additional observations from a re-analysis of the deposited data

How the results depend on the processing

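Of 68 values recomputed under an alternative, 43 stayed close to the value given, within the interval of a share or 1.5 times a count, and 25 moved. Leaving out repeats, the deepest CpGs, CpGs within 10 bp of a site or CpGs with both fragment ends within 50 bp, adding chromosome X, or counting loci moved none of the counts or shares beyond that. At least 20 reads gave 206 higher, 114 lower and 285 opposite, 64.4% higher among members and 72.9% with neighbours within 100 bp moving the same way, against 69.6% with 10 reads. At least 30 reads gave 45, 24 and 73, a same-direction share of 48.6% and 65.2% higher. A threshold of 15 points gave 3378, 2659 and 5587. A threshold of 25 points gave 391, 315 and 592 and neighbours at 74.0%. A threshold of 30 points gave 123, 109 and 191, a same-direction share of 54.8%, 53.0% higher and neighbours at 75.8%. Neighbours 100 to 500 bp away gave 51.7% and those on other fragments within 1000 bp 53.5%. The cause was not tested, beyond the fewer CpGs eligible with more reads. The same-direction share went under 50% only with at least 30 reads among the alternatives run. The neighbour share was not computed for loci. No paired analysis was possible because each group had 1 library. Requiring 30 reads on each strand left 124704 of 528743 CpGs.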

Other observations

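The balance between higher and lower members varied by chromosome within wide intervals. The share of members higher in siH19 ran from 49.1% on chromosome 19 (35.1 to 63.2%) to 60.8% on chromosome 9 (51.5 to 69.6%), and on chromosome X, outside the set, it was 68.1% of 160 (60.3 to 75.3%). Members were most frequent per eligible CpG on chromosome 18, with 5.12 per 1000, and least on chromosome 19, with 2.89. Opposite-direction CpGs ran from 2.57 per 1000 on chromosome 8 to 4.27 on chromosome 5. By mean level, CpGs between 10 and 20% had 88 higher and 42 lower members, and CpGs between 80 and 90% had 41 and 55.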
